A study of Mus musculus with 2 samples.

Results

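The Ifitm genes encode small interferon-induced transmembrane proteins, and the family is represented here by Ifitm1, Ifitm2, Ifitm3 and Ifitm6, 4 of the 15416 genes in a single-cell RNA table. These members were taken by name from the table's rows and followed over the authors' 16 subclusters of cells in each of 3 mice, with Ifitm1 followed further inside the dendritic cell-like subclusters. From tumours, the sort kept cells that carried CD45, found on all leukocytes, together with JAML. The latter is a leukocyte surface receptor of the junctional adhesion molecule family. The sample hashtags read B16F10, a mouse melanoma line, isotype control I, II and III, so all 3 belong to 1 group labelled as isotype control, and no other treatment was compared. Each hashtag is taken here as 1 mouse, which its numbering shows only indirectly, and every SD, n and p-value over mice rests on that reading. Strain, sex and age are not given in the sources used here. The labels call the cells T cells, but the table also holds many cells with dendritic cell and myeloid transcripts.

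IFITM proteins sit in the plasma membrane and in endosomal membranes, where they hinder the fusion of enveloped viruses with the cell. IFITM3 acts mainly in endosomes and lysosomes, and IFITM1 is found more at the cell surface, where it can associate with tetraspanins such as CD81. Type I and type II interferons raise Ifitm RNA in many cell types, while some cells carry it without an added stimulus. In mice, Ifitm1 and Ifitm3 are also known as markers of developing germ cells.

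The 4 members lie together on chromosome 7 in GRCm38, the build named mm10 in the submitters' processing notes, within 63088 bases. In the GENCODE vM21 annotation, Ifitm2 covers chr7:140954837-140955987, Ifitm3 chr7:141009586-141010770 and Ifitm6 chr7:141015699-141017924, each on the minus strand, and Ifitm1 covers chr7:140967221-140969825 on the plus strand. Ifitm5 and Ifitm10, which also have rows, lie on the same chromosome. Ifitm7 has no row and was not analysed here. The members' transcripts resemble each other: the longest stretch of identical sequence was 69 bases between Ifitm2 and Ifitm3, 64 between Ifitm1 and Ifitm3 and 40 between Ifitm1 and Ifitm2, while Ifitm6 shared at most 25 bases with any of them. Of the 629 different 50-base stretches of Ifitm3 transcripts, 20 also occur in Ifitm2 and 15 in Ifitm1, so reads that fall wholly inside them cannot be told apart. Ifitm2 also shares exons with the annotated gene Gm45717 on the same strand, and how the counting treated such reads is not given in the sources used here.

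The promoters are shown because the members differ in the interferon-response letters near their starts. In RefSeq windows of GRCm38.p6 that run from 250 bases before to 50 bases after a gene's start, the core of the interferon-stimulated response element, searched on both strands as GAAA followed, after any 2 bases, by GAAA, occurred 1 time for Ifitm2 and 2 times for Ifitm3. It did not occur in the windows of Ifitm1 and Ifitm6. Of all 32851 windows, 3.44% held it, and of the 26 genes with a window among the 35 listed interferon-stimulated genes below, 15 did. In the lines below, read along each gene's strand, capitals mark the matched letters.
Ifitm2 (chr7:140955988-140956017, minus strand): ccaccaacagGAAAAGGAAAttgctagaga
Ifitm3, the first match (chr7:141010723-141010752, minus strand): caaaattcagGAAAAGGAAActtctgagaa
Ifitm3, the other match (chr7:141010706-141010735, minus strand): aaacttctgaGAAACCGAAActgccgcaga
The capitals of the Ifitm2 line and of the first Ifitm3 line are the same, and the Ifitm3 matches lie inside the 50 bases after the RefSeq start. A gamma-activated site, searched as TTCNNNGAA, was found 1 time in Ifitm3, just after the first match and overlapping the other, and 1 time in Ifitm6 (8.30% of all windows held it). The Ifitm6 window instead held 2 matches to the composite letters for ETS and IRF factors, GGAA followed after any 2 bases by GAAA, which 2.72% of windows held. They end in the same GAAA as the response element, and 1 of them lies in this stretch.
Ifitm6 (chr7:141017072-141017101, minus strand): tttacaaacaGGAACAGAAAttttggagaa
The Ifitm1 window matched none of these motifs. That window covers 1 start, although Ifitm1 has 3 annotated transcripts, and the same holds for Ifitm6 with 3, whose window lies inside the annotated gene. What the windows lack says nothing of the other starts. These matches describe letters and were not tested for binding.

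The table held 5976 cells and 103155608 unique molecular identifiers (UMIs, each a tagged RNA molecule). Mouse 1 gave 2445 cells, mouse 2 gave 1184 and mouse 3 gave 2339, and the median cell had 16912, 15917 and 11648 UMIs. A level below is in CPM, a gene's UMI count summed over a subcluster's cells in 1 mouse and scaled to the usual common total of all genes, with the mean and SD over mice that had at least 10 such cells. No cell barcode occurred more than once. By marker genes, subcluster 4 was like type 2 conventional dendritic cells (cDC2; 4 of 8 markers, among them Cd209a and Clec10a), subcluster 6 like type 1 (cDC1; 9 of 9) and subcluster 12 like mature migratory dendritic cells (9 of 10). Subclusters 0 and 9 were like plasmacytoid dendritic cells (pDC; 10 of 10 in subcluster 0), subcluster 3 like natural killer (NK) cells (7 of 9), and the rest of the lymphocytes like CD8 T cells. Subcluster 3 also met 3 of 8 T cell and 3 of 6 gamma-delta T cell markers, so its NK-like name does not mean NK cells alone. Subcluster 11 was led by division genes (6 of 6). Subcluster 2 met 8 of 9 macrophage and 5 of 8 monocyte markers, led by Chil3, Arg1 and Vcan, and subcluster 13 met 2 of 10 pDC and 3 of 8 cDC2 markers, so both are called by their numbers.

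Ifitm RNA was concentrated in conventional dendritic cell-like and myeloid cells, and Ifitm1 in particular in subcluster 4. The authors' clusters that hold subclusters 2, 4, 6, 11 and 12, together with subcluster 13, made up 33.0% of the cells, and between 95.3% (Ifitm1) and 97.5% (Ifitm6) of each member's UMIs came from them. Subcluster 4 held 8.77% of the cells and 70.5% of all Ifitm1 UMIs, against 36.4% of those of Ifitm2, 36.4% of Ifitm3 and 43.3% of Ifitm6. Subcluster 2 held 715 of the cells, more than subcluster 4 with its 524, but only 6.17% of the Ifitm1 UMIs, against 33.4% of those of Ifitm2, 44.7% of Ifitm3 and 43.9% of Ifitm6. The authors named the cluster that holds subclusters 4 and 12 after Ifitm1, so its level there is a description and carries no test.

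**Figure D1:**
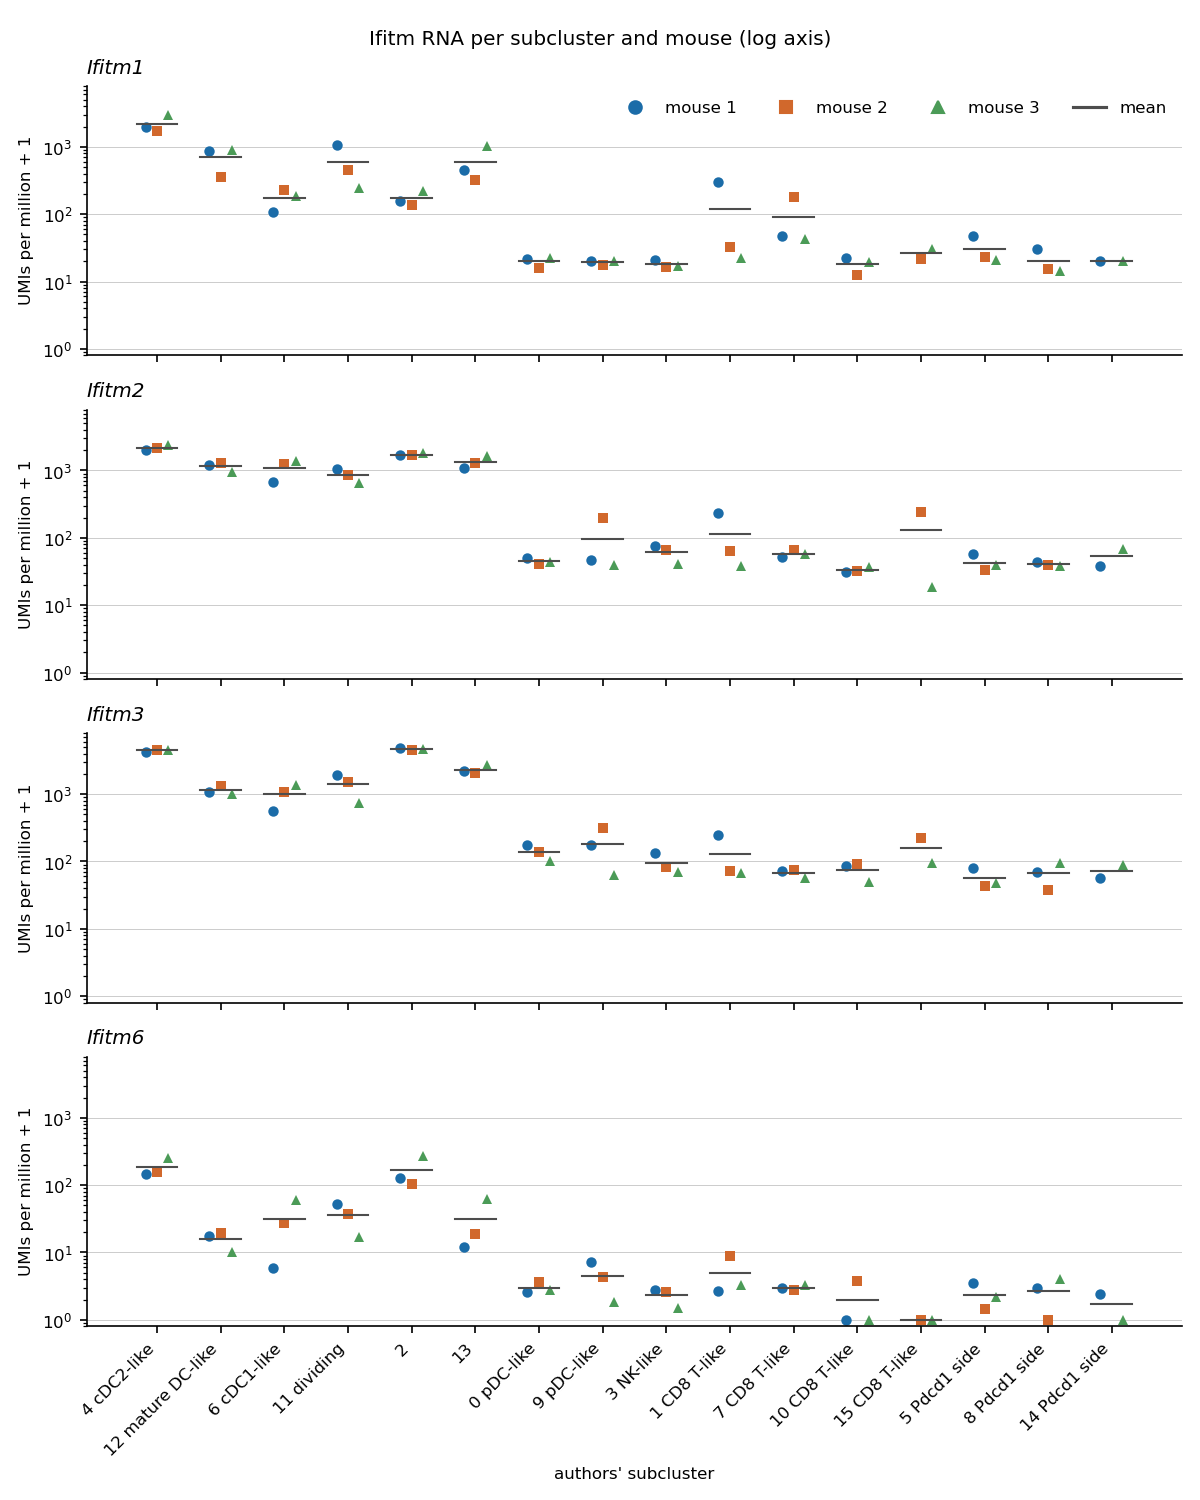
Level of each Ifitm gene (CPM plus 1, log axis) in each of the authors' subclusters, 1 point per mouse with at least 10 cells and a bar for the mean. Mean levels of all 4 genes are higher in the 6 subclusters on the left than in the pDC-like, NK-like and T-like subclusters, although Ifitm1 in T-like subcluster 1 of mouse 1 (302 CPM) and subcluster 7 of mouse 2 (180.1 CPM) reaches the range of subclusters 2 and 6. For Ifitm1 subcluster 4 stands far above the other subclusters.

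Ifitm1, the member with the most surface-associated protein, was at 1941, 1721 and 2991 CPM in mice 1, 2 and 3 in subcluster 4 (2218 ± 678, SD, n = 3), above every other subcluster in every mouse. The mature migratory subcluster 12 had 877, 356 and 899.6 CPM, subcluster 13 had 448, 320.0 and 1037 CPM, and subcluster 11 had 1065, 456 and 241 CPM. These 3 subclusters overlapped each other and lay below subcluster 4. The cDC1-like subcluster 6 followed with 108, 227 and 188 CPM and subcluster 2 with 157, 135 and 219 CPM, and their ranges overlapped too. All other subclusters had means between 17.1 (subcluster 10) and 118 CPM (subcluster 1). The value of subcluster 1 rested on mouse 1, at 302 CPM from 64 cells, against 32.1 and 21.0 CPM in mice 2 and 3. In that mouse 1 cell held 139 of the 179 UMIs, the level was 47.1 CPM without the 3 cells with the most, and the mean over mice was 41.8 CPM without cells that carried UMIs of another lineage. Subcluster 7 likewise rested on mouse 2, at 180.1 CPM, against 46.6 and 41.4 CPM in mice 1 and 3, and without its top 3 cells mouse 2 was at 18.2 CPM.

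Ifitm2 varied least among the dendritic and myeloid subclusters. It was at 2009, 2145 and 2375 CPM in subcluster 4 and at 1671, 1702 and 1788 CPM in subcluster 2, without overlap. Subcluster 13 (1341 ± 282 CPM), 12 (1146 ± 179), 6 (1104 ± 379) and 11 (853 ± 198) came next, each overlapping its neighbour in this order. The pDC-like, NK-like and T-like subclusters had means between 32.2 and 129.5 CPM.

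Ifitm3, the member best known for restricting viruses in endosomes, was high in both subcluster 2, at 4918, 4579 and 4645 CPM, and subcluster 4, at 4294, 4498 and 4571 CPM. Their ranges came within a small margin of each other. Subcluster 13 was lower, at 2174, 2025 and 2750 CPM, and subclusters 11 (1392 ± 594 CPM), 12 (1133 ± 182) and 6 (1004 ± 404) were lower again and overlapped. No other subcluster had a mean above 183 CPM.

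Ifitm6, a member whose RNA has been described in macrophages, was at 147, 158 and 248 CPM in subcluster 4 and at 126, 102 and 267 CPM in subcluster 2, with overlap. Subclusters 11, 6, 13 and 12 followed with means of 34.5, 30.2, 29.9 and 14.7 CPM, and the remaining subclusters had means under 4 CPM, the highest being 3.99 CPM in subcluster 1. In subcluster 6 all 4 members were lowest in mouse 1: Ifitm6 was at 4.96 CPM there, against 26.5 and 59.2 CPM in mice 2 and 3, and Ifitm3 was at 566 CPM, against 1085 and 1362 CPM. The summed level of 33 listed interferon-stimulated genes other than Bst2 was at 2819, 2692 and 2539 CPM in mice 1, 2 and 3 of that subcluster. The cause of the difference between mice was not tested.

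Of the other family rows, Ifitm5, a gene known from bone-forming cells, was nearly absent, with 58 UMIs in all, and Ifitm10 had the opposite distribution. Ifitm10 reached 55.2 ± 4.18 CPM in the NK-like subcluster 3 and between 34.2 and 45.6 CPM in the CD8 T-like subclusters 1, 7, 10 and 15, and it had at most 1.71 CPM in dendritic, pDC-like and myeloid subclusters. Only 3.90% of its 1307 UMIs came from the cells that held over 95% of each member's UMIs.

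Dividing cells of subcluster 11 differed in Ifitm levels by the cluster the authors had placed them in. Of its 129 cells, 44 were in the Ifitm1 cluster and 82 in the Xcr1 cluster, which is cDC1-like. The 44 cells had 2293, 950.4 and 2248 CPM of Ifitm1 (26, 14 and 3 cells in mice 1, 2 and 3, and 1 without a hashtag) and the 82 cells had 102, 42.8 and 39.3 CPM. The same cells differed in the marker Cd209a (628 against 4.13 CPM) and in Xcr1 (3.62 against 298 CPM). In mice 1, 2 and 3, Ifitm3 was at 3381, 2939 and 3696 CPM against 849.6, 369 and 452 CPM. Ifitm2 was at 1558, 1403 and 1012 CPM against 669, 377 and 647 CPM, and Ifitm6 at 102, 77.9 and 107 CPM against 8.83, 1.59 and 6.74 CPM. Mouse 3 is shown here despite its 3 cells of the Ifitm1 cluster, under the minimum of 10 used elsewhere. For each member the groups did not overlap, but the share of all genes that separate these groups was not counted. Since the authors' clusters used these genes, no test was made. Compared with all cells of their cluster, which include them, the dividing cells had less Ifitm2 in each mouse. For Ifitm2, the Ifitm1 cluster as a whole was at 1879, 1928 and 2033 CPM and the Xcr1 cluster at 674, 1025 and 1246 CPM. In the Xcr1 cluster, mouse 1 hardly differed, at 669 against 674 CPM. The other members were also lower in mice 2 and 3. In mouse 1, however, dividing cells of the Xcr1 cluster had more Ifitm3 (849.6 against 626 CPM) and Ifitm6 (8.83 against 5.78 CPM). Those of the Ifitm1 cluster had more Ifitm1 in mouse 1 (2293 against 1854 CPM). Mouse 3 had the lowest level of every member in subcluster 11 as a whole, where its cells were differently mixed. It had 3 cells of the Ifitm1 cluster and 26 of the Xcr1 cluster, against 26 and 37 in mouse 1 and 14 and 18 in mouse 2. Within the clusters, mouse 3 was lowest only for Ifitm2 in the Ifitm1 cluster and for Ifitm1 in the Xcr1 cluster.

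**Figure D2:**
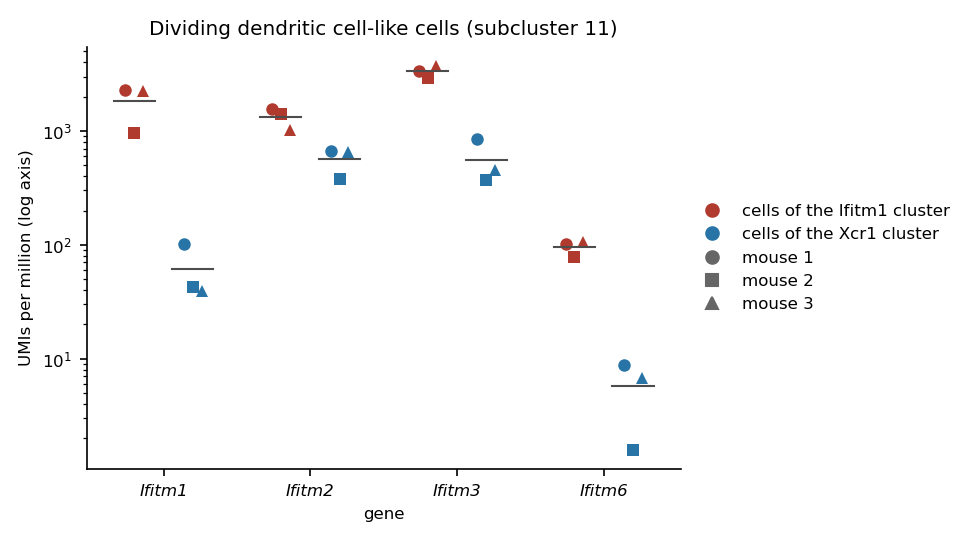
Level of each Ifitm gene (CPM, log axis) in the dividing cells of subcluster 11, split by the authors' cluster, 1 point per mouse with a bar for the mean. The bar includes mouse 3, which has 3 cells in the Ifitm1 cluster. In every mouse the cells of the Ifitm1 cluster lie above those of the Xcr1 cluster for all 4 genes.

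To compare classes of cells without using the members to define them, cells were clustered again with every Ifitm gene left out. Genes of the other lists below were not left out, so they could help to define the classes they are compared between. Each new cluster was given the name of the subcluster that most of its cells carried. The classes shared 94.3% to 99.8% of their cells with the authors' subclusters, except for the classes of subcluster 13 (56.7%) and NK-like cells (75.4%). In turn, the Cd3g-side class (subclusters 1, 7, 10 and 15) held 83.1% of the authors' 1310 cells. Every other class held at least 93.1% of the authors' cells. UMIs were summed per mouse and class and compared with edgeR's quasi-likelihood test with the mouse as a block. Adjusted p-values are Benjamini-Hochberg values over all genes tested in that comparison, with a threshold of 0.05, and fold changes are log2 values with their SE. With the mouse as a block, the p-values set a class difference against how that difference varied between 3 mice of 1 group. The SDs over mice also hold the differences between mice that the block removes. Several comparisons share a class (cDC2-like cells enter 3 of them, and cDC1-like, pDC-like and Cd3g-side cells 2 each), so their values are not independent. Since classes differ in many genes, each count of members is given beside the share of all genes that passed.

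**Figure D3:**
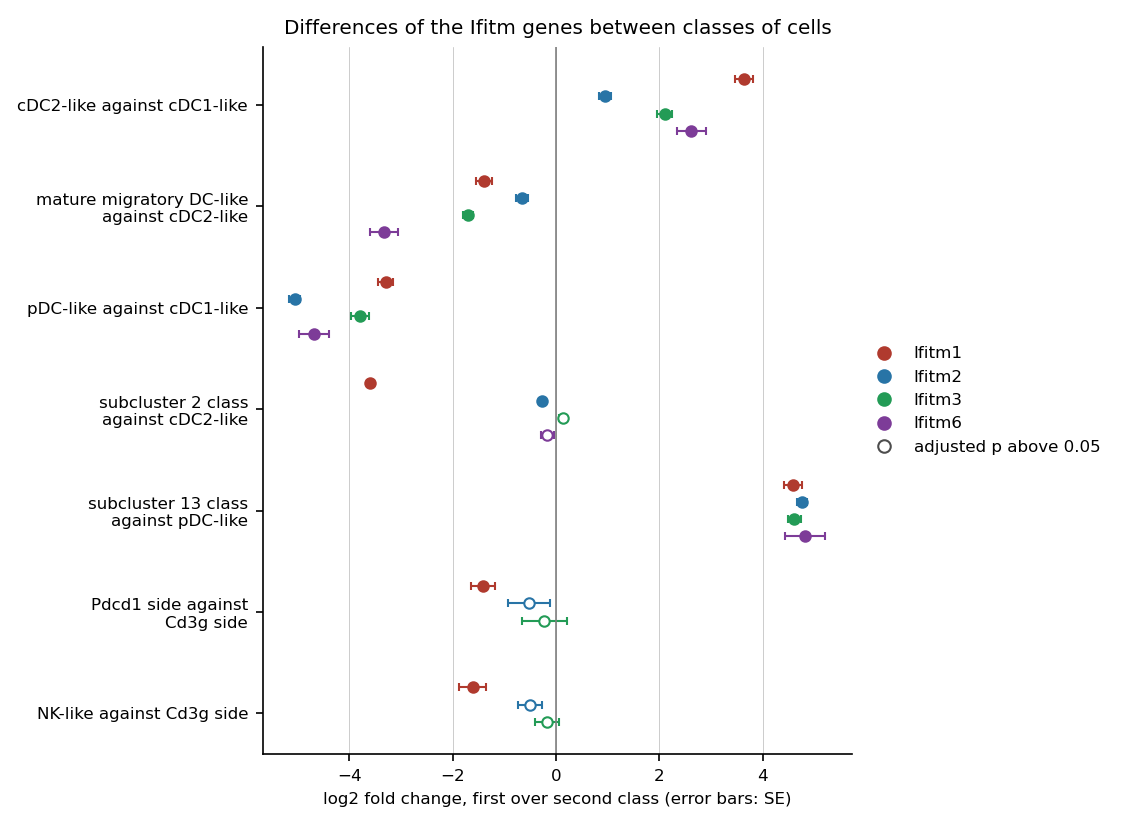
Log2 fold change of each Ifitm gene between classes rebuilt without Ifitm genes (points, with the SE as error bars; open points have an adjusted p above 0.05). Ifitm1 shows the highest fold of the 4 in cDC2-like over cDC1-like cells (3.64) and is the only member far below 0 in the class of subcluster 2 (-3.59).

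All 4 members were higher in cDC2-like than in cDC1-like cells, the dendritic cells specialised for presentation to CD4 T cells and for cross-presentation. Among all 9591 genes tested, 35.9% passed, 18.7% higher and 17.2% lower. Ifitm1 was at 2129 ± 666 against 172 ± 58.3 CPM (SD, n = 3), a log2 difference of 3.64 ± 0.17 (adjusted p = 7.8e-09, edgeR). Ifitm6 was higher by 2.62 ± 0.28 (1.1e-05) and Ifitm3 by 2.10 ± 0.14 (1.9e-07), while Ifitm2 was higher by 0.94 ± 0.11 (3.0e-05). Each was higher in 3 of 3 mice, so Ifitm2 was the member that separated these classes least. Of 34 tested interferon-stimulated genes, 22 were higher and 2 lower (median log2 1.31, against -0.01 over all genes), including Ifit3 at 5.07 ± 0.14 and Oasl2 at 3.67 ± 0.16, both induced antiviral genes.

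Against cDC2-like cells, mature migratory dendritic cell-like cells, which carry antigen to lymph nodes, had less RNA of all 4 members, in a comparison where 42.4% of 8650 genes passed, 21.5% lower and 20.9% higher. Ifitm6 differed most, at 15.998 ± 5.85 against 179 ± 54.4 CPM (log2 -3.33 ± 0.28, adjusted p = 1.9e-06, edgeR). Ifitm3 was lower at -1.70 ± 0.09 (4.8e-08), Ifitm1 at -1.39 ± 0.16 (2.8e-05) and Ifitm2 at -0.66 ± 0.12 (0.00079), each in 3 of 3 mice. In the authors' subcluster 12 the 3 cells with the most UMIs mattered: without them the Ifitm3 level was 857 instead of 1133 CPM and that of Ifitm6 7.81 instead of 14.7 CPM. Interferon-stimulated genes were lower for 15 and higher for 2 of 34 (median -0.57). The interferon gamma receptor gene Ifngr1 was also lower, at -1.92 ± 0.14. The tetraspanin genes, a family with known IFITM partners, went mainly the other way, with 6 higher and 1 lower of 10, including Cd63 at 6.88 ± 0.17 and Cd81 at 5.37 ± 0.34.

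In pDC-like cells, the main producers of type I interferon, all 4 members were far lower than in cDC1-like cells, where 65.2% of 10079 genes passed, 32.7% lower and 32.5% higher. Ifitm2 was at 38.0 ± 5.34 against 1118 ± 379 CPM (log2 -5.05 ± 0.10, adjusted p = 3.8e-16, edgeR), Ifitm6 differed by -4.68 ± 0.29 (4.4e-10), Ifitm3 by -3.80 ± 0.17 (7.8e-12) and Ifitm1 by -3.29 ± 0.14 (5.3e-12). Each was lower in 3 of 3 mice. The receptor genes Ifnar1 and Ifnar2 were higher in pDC-like cells, at 1.21 ± 0.08 and 1.61 ± 0.07, and Ifngr1 was lower, at -3.23 ± 0.12. Of 32 interferon-stimulated genes 5 were higher and 16 lower (median -0.56), with Bst2, itself a pDC marker, among the higher at 3.35 ± 0.05 and Slfn5 among the lower at -2.47 ± 0.08.

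The class of subcluster 13, which the authors placed in the cluster named after Siglech, a pDC gene, had more RNA of all 4 members than pDC-like cells, in a comparison added after the data were seen in which 34.6% of 9014 genes passed, 18.7% higher and 15.8% lower. The differences were of similar size, at 4.58 ± 0.17 for Ifitm1, 4.76 ± 0.09 for Ifitm2, 4.61 ± 0.12 for Ifitm3 and 4.82 ± 0.39 for Ifitm6 (adjusted p between 7.7e-12 and 9.5e-07, edgeR), higher in 3 of 3 mice each, with Ifitm3 at 1966 ± 365 against 83.5 ± 9.50 CPM. This class had 201 cells, of which 114 were of subcluster 13. In the authors' subcluster the summed level of the 10 pDC markers was 5530 CPM, against 20441 in subcluster 0, and that of the 8 cDC2 markers 2031 CPM, against 632 in subcluster 0 and 3184 in subcluster 4. The part of these markers' cells in the result was not tested. Of 33 interferon-stimulated genes 28 were higher and 1 lower (median 1.53).

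The class of subcluster 2 differed from cDC2-like cells in Ifitm1 and by far less in the other members. Ifitm1 was at 178 ± 51.5 against 2129 ± 666 CPM (log2 -3.59 ± 0.07, adjusted p = 3.6e-11, edgeR; lower in 3 of 3 mice), in a comparison where 38.2% of 9809 genes passed, 18.9% lower and 19.3% higher. Ifitm2 was lower by 0.27 on the log2 scale (-0.27 ± 0.06, adjusted p = 0.0037), a call that one fit over all classes did not give (-0.23, adjusted p = 0.53). Ifitm3 was at 4825 ± 207 against 4374 ± 214 CPM (0.13 ± 0.06, adjusted p = 0.13) and passed the threshold without mouse 2 (0.18, adjusted p = 0.010). Ifitm6 was at 170 ± 94.3 against 179 ± 54.4 CPM (-0.17 ± 0.12, adjusted p = 0.31), with a value of -0.35 past the threshold without mouse 3 and 0.022 without mouse 2. Of the 4 members, 2 passed here. Interferon-stimulated genes were higher in the class of subcluster 2 for 18 and lower for 4 of 34 (median 0.33), among them Ifi27l2a at 0.92 ± 0.06 and the transcription factor gene Irf7 at 0.88 ± 0.07.

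Inside subcluster 4 the members were spread over the cells in unlike ways. Ifitm3 and Ifitm2 were found in 99.6% of its 524 cells, and Ifitm1 in 82.6% with a wide range, from 0 to 478 UMIs and a median of 12. No Ifitm1 UMI was found in 91 cells (17.4%), 1 to 9 in 28.4%, 10 to 49 in 23.1% and 50 or more in 163 cells (31.1%), which held 88.5% of the Ifitm1 UMIs. The median total UMIs of these 4 groups of cells ranged only from 23052 to 25664. In mice 1, 2 and 3 the share of cells without Ifitm1 was 20.6%, 20.2% and 9.09%, and that with 50 or more was 28.2%, 26.0% and 40.6%, so mouse 3 had both the fewest cells without and the most with high counts. In cells with no Ifitm1 UMI, Ifitm2 was at 1130, 1253 and 1812 CPM in mice 1, 2 and 3. In those with 50 or more it was at 3349, 3343 and 2989 CPM. How many of all genes differ in this way between these cells was not counted. Ifitm6 was at 68.6, 45.7 and 125 CPM against 265, 323 and 280 CPM, and Ifitm3 at 3372, 2882 and 4364 CPM against 5336, 6007 and 4914 CPM.

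**Figure D4:**
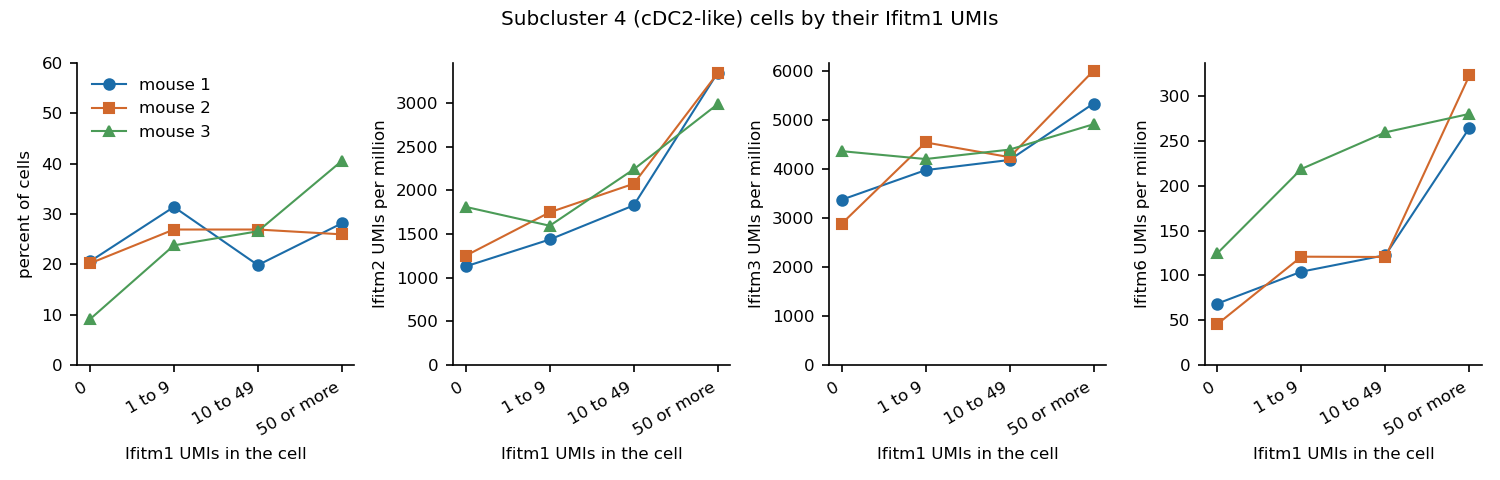
Cells of the cDC2-like subcluster 4 grouped by their number of Ifitm1 UMIs, with the share of cells (left) and the level of Ifitm2, Ifitm3 and Ifitm6 (CPM, linear axes from 0) in each mouse. In every mouse each of the 3 other genes is highest in cells with 50 or more Ifitm1 UMIs.

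Cells of the authors' subcluster 4 with at least 1 Ifitm1 UMI were compared with cells without, in equal numbers drawn within deciles of total UMIs (57, 21 and 13 cells on each side in mice 1, 2 and 3). In this comparison 0.365% of 5480 genes passed the threshold, 0.274% higher (15 genes) and 0.0912% lower (5 genes), and Ifitm1 itself was not tested. Of the members Ifitm6 alone passed in this draw, at 223 ± 42.3 against 79.7 ± 40.7 CPM (log2 1.64 ± 0.20, adjusted p = 0.018, edgeR; higher in 3 of 3 mice). That call was lost without mouse 1 (adjusted p = 0.089), without the mouse block (0.053) and with at least 10 against at most 1 UMI (1.04, adjusted p = 0.056). Ifitm2 was at 0.78 ± 0.19 (adjusted p = 0.16) and Ifitm3 at 0.39 ± 0.14 (adjusted p = 0.40). Which members passed depended on the draw: with another one Ifitm2 (0.87, adjusted p = 0.0024) and Ifitm3 (0.56, adjusted p = 0.0069) passed as well. Both also passed with all cells unmatched, without the filter on low counts, with at least 2 UMIs against none and without mouse 3. Ifitm2 passed, and Ifitm3 did not, without mouse 2 (0.98, adjusted p = 0.00046) and with at least 10 against at most 1 UMI (1.09, adjusted p = 0.0012).

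Around the members, cells with Ifitm1 RNA had more RNA of Il1r2, the decoy receptor of interleukin 1, at 377 ± 129 against 87.0 ± 40.2 CPM (log2 2.26 ± 0.32, adjusted p = 0.033, edgeR), and of Cd72, a lectin-like receptor, at 1.85 ± 0.19 (adjusted p = 0.0066). The cytokine gene Il1b was higher at 1.58 ± 0.23, the adhesion regulator gene Cytip at 1.32 ± 0.14, the receptor gene Kit at 2.05 ± 0.31, the nuclear receptor gene Nr4a3 at 2.09 ± 0.31 and the lectin-like receptor gene Klra17 at 3.25 ± 0.50. The chemokine gene Ccl17 was lower, at 20.2 ± 22.4 against 404 ± 278 CPM (-4.36 ± 0.32, adjusted p = 0.00069), as were the ribonuclease gene Ear2 at -1.14 ± 0.16, the early response gene Egr1 at -1.53 ± 0.25, the lipid amidase gene Naaa at -0.70 ± 0.11 and the complement gene C1qb at -2.68 ± 0.42. Over the 11 alternative settings Ccl17 passed in 11, Il1r2, Cd72 and Cytip in 10 each and Il1b in 9, while Kit passed in 8, Egr1 in 6 and C1qb, Ear2 and Naaa in 4 each. Nr4a3 passed in 7 of the 10 in which it was tested and Klra17 in 3 of 7. C1qb and Ccl17 are also markers of macrophages and of mature migratory dendritic cells, and the part of such cells in the result was not tested. Of 12 interferon receptor and signalling genes 1 passed, Ifngr1, higher at 1.11 ± 0.16 (adjusted p = 0.033), and of 7 tetraspanin genes 1, Tspan13, higher at 1.21 ± 0.18. None of 32 interferon-stimulated genes passed with edgeR (11 had an unadjusted p under 0.05, beside 543 of all 5480 genes, and DESeq2 called 1). Their median was 0.37, against -0.01 over all genes, the nearest to the threshold being Ifit1 at 1.47 ± 0.26 (adjusted p = 0.061).

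T-like, NK-like and pDC-like cells had Ifitm1 UMIs in a low and alike share of cells. With every cell thinned to 7537 UMIs, an Ifitm1 UMI was found in 9.79% to 13.8% of cells in each of these subclusters, against 71.1% in subcluster 4, 26.9% in subcluster 2 and 22.3% in subcluster 6. Unthinned shares ranged from 14.8% to 40.0% in these subclusters, whose median depths differ, and were 82.6% in subcluster 4. Ifitm3 was found in 26.3% to 43.5% of thinned cells there and in at least 82.3% in every other subcluster. The part of free RNA in these low shares was not tested. Of 2798 lymphocyte cells, 9 had 20 or more Ifitm1 UMIs and held 43.5% of the lymphocytes' Ifitm1 UMIs. Of these 9 cells, 6 also had at least 5 UMIs of H2-Ab1, Lyz2 and Siglech together, as did 27.7% of all lymphocytes. The 9 cells were deeper, with a median of 34901 UMIs against 10352.5, and the share at equal depth was not tested.

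The CD8 T-like cells fall into clusters that the authors named after Cd3g, a T cell receptor subunit gene, and Pdcd1, the gene of the checkpoint receptor PD-1. On the Pdcd1 side Ifitm1 was at 20.7 ± 4.21 against 58.6 ± 28.0 CPM (log2 -1.42 ± 0.23, adjusted p = 0.0012, edgeR; lower in 3 of 3 mice), where 39.1% of 9592 genes passed, 18.7% lower and 20.3% higher. With thinned cells the value was 0.19 (adjusted p = 0.68), so the direction turned. As given above, the authors' subcluster 1 in mouse 1 and subcluster 7 in mouse 2 owed most of their Ifitm1 level to a few cells. The part of such cells in this call was not tested. Ifitm2 and Ifitm3 did not pass, at -0.52 ± 0.40 and -0.22 ± 0.43. Both passed with finer clusters (-0.73 and -0.63) and without cells that carried UMIs of another lineage (-1.14 and -1.07), and Ifitm2 with the authors' subclusters (-0.88) and without the filter (-0.48). Without mouse 3 they were at -1.34 and -1.13 and passed, and without mouse 1, whose Cd3g side had 82 cells, they were at 0.059 and 0.42 and did not. Ifitm10 was lower on the Pdcd1 side, at 18.3 ± 3.22 against 32.9 ± 6.76 CPM (-0.90 ± 0.21, adjusted p = 0.0087). In the same comparison 33 of 33 interferon-stimulated genes and 10 of 12 receptor and signalling genes were lower (medians -1.78 and -1.06), among them Ifit3 at -4.75 ± 0.19 and Isg15 at -2.53 ± 0.16. The Cd3g side included a rebuilt cluster of 51 cells, 40 of them of subcluster 15, which is led by Ifit genes. Ifit3 was at 2128 ± 280 CPM in subcluster 15 (n = 2), against 161 ± 14.4 in subcluster 1, 121 ± 26.3 in subcluster 7 and 47.7 ± 11.5 in subcluster 10. The part of these cells in the differences was not tested.

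NK-like cells had Ifitm1 at 16.1 ± 2.60 CPM, against 58.6 ± 28.0 CPM in the same Cd3g-side cells (log2 -1.61 ± 0.26, adjusted p = 0.0018, edgeR), where 17.3% of 9060 genes passed, 8.32% lower and 9.01% higher. This call was also lost with thinned cells (-0.16, adjusted p = 0.79), and the part of a few Cd3g-side cells with many Ifitm1 UMIs was not tested here either. Thinning left out cells of both classes, and kept 451 of the 632 cells of the authors' subcluster 3. The part of the lost cells was not tested. Ifitm2 was at -0.50 ± 0.23 (adjusted p = 0.16) and passed without mouse 3 (-0.89, adjusted p = 0.0033), and Ifitm3 was at -0.17 ± 0.23. Ifitm10 was higher in NK-like cells, at 51.5 ± 2.13 CPM (0.64 ± 0.15, adjusted p = 0.014). Interferon-stimulated genes were lower in NK-like cells for 29 of 32 (median -1.10). Here too the Cd3g side included cells of subcluster 15, and their part in this was not tested. Ifitm6 was below the filter on low counts in both of these comparisons, with means of at most 3.07 CPM.

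The subcluster with the most RNA of other interferon-stimulated genes was not among those with high Ifitm levels. The summed level of 33 listed genes without Bst2 was highest in subcluster 15, a small T-like subcluster led by Ifit genes, at 18531 and 20129 CPM in mice 2 and 3 (15 and 20 cells). Ifitm3 was at 221 and 94.9 CPM there and Ifitm1 at 20.7 and 29.7 CPM. Mouse 1 had only 9 cells of it and was left out, and its Ifitm3 level of 2196 CPM came mainly from 1 cell with 172 of the 257 UMIs. Subcluster 2 came next with 7454 ± 675 CPM and subcluster 4 with 5195 ± 426 CPM, both with Ifitm3 at 4294 CPM or more in every mouse. Subclusters 1 (4304 ± 546 CPM) and 7 (3563 ± 514 CPM) had more of these genes than the cDC1-like subcluster 6 (2683 ± 140 CPM), while their Ifitm3 levels, 129 ± 104 and 67.1 ± 9.42 CPM, were far lower than its 1004 ± 404 CPM.

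**Figure D5:**
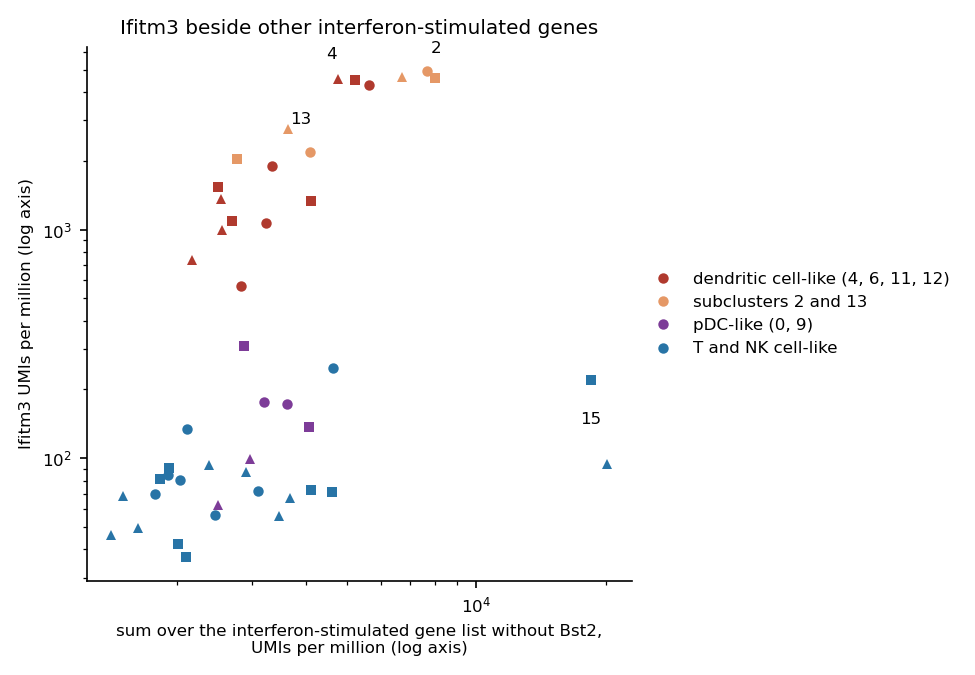
Ifitm3 level against the summed level of 33 interferon-stimulated genes without Bst2 (both in CPM, log axes), 1 point per subcluster and mouse with at least 10 cells, with the marker shape giving the mouse (circle 1, square 2, triangle 3) and the colour the kind of subcluster. The T-like subcluster 15 lies farthest right yet low, and dendritic and myeloid subclusters lie above T-like ones with the same summed level.

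The pattern of each member over the 46 sums of a subcluster in a mouse was most like that of other members and of a few myeloid genes. These correlations describe log2 of CPM plus 1 over sums that share cells' type and library, among 6517 genes with at least 30 CPM in some subcluster. Ifitm2 and Ifitm3 were closest (Pearson r = 0.96), Ifitm3 and Ifitm6 followed at 0.92 and Ifitm1 and Ifitm2 at 0.88, and the lowest value among the 4 members was 0.81, between Ifitm1 and Ifitm6. Ifitm10 ran opposite to each (between -0.50 and -0.67). Ifitm1 was then most like Nectin1, an adhesion gene (0.88), and Rtn1, a reticulon gene (0.88). Both were higher in subcluster 4, at 30.3 ± 8.41 and 42.8 ± 6.32 CPM, than in subcluster 2, at 3.92 ± 1.32 and 4.62 ± 1.43 CPM, as Ifitm1 was. Ifitm3 was most like Ms4a6c (0.96) and B4galt6 (0.95), and Ifitm2 like Wfdc17 (0.95) and Hfe (0.94). Ms4a6c, a membrane-spanning gene of monocytes and macrophages, was at 1257 ± 196 CPM in subcluster 2, 791 ± 53.5 in subcluster 4 and 61.0 ± 10.9 in subcluster 0. Ifitm6 was most like Arpc1b, an actin-nucleation subunit gene (0.92).

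Genes for enzymes and partners that act on IFITM proteins passed in both directions. Of 8 tested genes, 1 was higher and 2 lower in cDC2-like than in cDC1-like cells, close to the 35.9% of all genes that passed there. The kinase gene Fyn, whose product phosphorylates IFITM3, was higher at 0.90 ± 0.10, and the tetraspanin genes Cd9 and Cd81 were lower at -1.37 ± 0.08 and -3.54 ± 0.21. In mature migratory against cDC2-like cells 3 of 8 were higher and 1 lower, beside 42.4% of all genes. In pDC-like against cDC1-like cells 4 of 8 were higher and 2 lower, beside 65.2% of all genes, with Fyn at 2.79 ± 0.07 and Cd9 at -5.95 ± 0.11. In the class of subcluster 2 against cDC2-like cells 2 of 8 were higher and 4 lower, beside 38.2% of all genes, including Nedd4, an ubiquitin ligase gene, at -2.82 ± 0.28 and Cd81 at 2.69 ± 0.29. On the Pdcd1 side 2 of 8 were higher and 2 lower, beside 39.1% of all genes. In NK-like cells 2 of 8 were higher and 1 lower, beside 17.3% of all genes. In the class of subcluster 13 against pDC-like cells 1 of 7 was higher and 1 lower, beside 34.6% of all genes. None of 5 passed between cells with and without Ifitm1 UMIs, beside 0.365% of all genes (edgeR; 0 had an unadjusted p under 0.05, and DESeq2 called 0).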

How the data were processed

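Droplet RNA sequencing used 10x Genomics 5' chemistry, as the labels state. The submitters' processing notes name Cell Ranger 3.1.0, Seurat 3.1.5 and the mm10 build, and the annotation and filters are not given in the sources used here. The deposited table holds UMI counts without normalization, and the authors' annotation gives each cell's total counts, hashtag, cluster and subcluster. The annotated total equalled the table's in all 5976 cells. The antibody-tag library was not used for measurements. Hashtags, read as mice, assigned 5968 cells to 3 mice, and 8 cells without one were left out of values per mouse. The 3 mice share 1 capture, and variation over mice is the only replicate error.

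Counts were summed per mouse and class, leaving out sums of under 10 cells. Because each mouse, read from the hashtag names, gives cells of both classes of a comparison, the mouse was a block. The labels do not spell out that a hashtag is a mouse. Classes were compared with edgeR 4.0.16 (TMM, filterByExpr, quasi-likelihood F test) in R 4.3.3, with SEs computed from the coefficient and its F value. Scripts were tested on simulated data. For the rebuilt classes, cells were clustered (scanpy 1.11.5, leidenalg 0.10.2) on 2000 variable genes other than Ifitm genes, 30 principal components and 15 neighbours at resolution 1. A marker was met at 25% of cells and 2-fold over the other cells. Thinned cells had 7537 UMIs, which left out the 598 cells with fewer. No doublet caller was run; cells with UMIs of another lineage were removed as an alternative. Other alternatives were RLE scaling, no filter, DESeq2 1.42.0, no block, each mouse left out, the authors' subclusters, finer clusters (resolution 2), thinned cells, one fit over all classes, other Ifitm1 gates and another matching draw. Promoter windows come from RefSeq (GRCm38.p6), with all members matched, and gene positions from GENCODE vM21.

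The members and lists were chosen with earlier results of these data known. Named genes were the members, for each member the 5 most similar named genes, the 5 most changed genes per direction for the Ifitm1 gate, and up to 3 genes per list with the smallest adjusted p; Il1b and Cytip were added after their values were seen. Intervals and floors cover counting error only. Results for some genes are not reported here.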

Additional observations from a re-analysis of the deposited data

Results flagged for a closer look

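The 8 cells without a hashtag entered no comparison, and they held Ifitm RNA above the limit that a count of 0 allows (3 counts of their 93452 UMIs, or 32.1 CPM). Ifitm1 was at 64.2 CPM (6 UMIs in 3 cells), Ifitm2 at 589 CPM (55 UMIs in 4 cells) and Ifitm3 at 621 CPM (58 UMIs in 6 cells). Ifitm6 had 1 UMI, which is below that limit. There is no replicate for these cells.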

How the results depend on the processing

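Of 347 fold changes of members under alternatives, 307 kept their direction and their side of the threshold. All did so in cDC2-like against cDC1-like (48), mature migratory against cDC2-like (48), pDC-like against cDC1-like (51) and the class of subcluster 13 against pDC-like cells (47). The values that turned direction were these. In the class of subcluster 2 against cDC2-like cells, Ifitm6 was at 0.0014 with thinned cells and from -0.35 to 0.022 with a mouse left out. On the Pdcd1 side, Ifitm1, Ifitm2 and Ifitm3 were at 0.19, 0.45 and 0.38 with thinned cells, and with a mouse left out Ifitm2 ranged from -1.34 to 0.059 and Ifitm3 from -1.13 to 0.42. In NK-like cells, Ifitm2 and Ifitm3 were at 0.48 and 0.20 with thinned cells, and Ifitm3 ranged from -0.43 to 0.27 with a mouse left out. The cause was not tested. Of the members, the count that passed in the class of subcluster 2 was 2 and became 1 with one fit over all classes. On the Pdcd1 side it was 1 and became 2 without the filter and with the authors' subclusters, 3 with finer clusters and without lineage-conflicting cells, 0 with thinned cells, and 1 to 3 with a mouse left out. In NK-like cells it was 1 and became 2 without the filter, 0 with thinned cells and 1 to 2 with a mouse left out. For the Ifitm1 gate it was 1 and became 3 with another draw, unmatched cells, no filter or at least 2 UMIs, 0 without the mouse block, and 0 to 3 with a mouse left out.

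Counts of all genes that passed fell with DESeq2 to 1799 (cDC2-like), 2343 (mature migratory), 2173 (class of subcluster 2), 2495 (Pdcd1 side), 699 (NK-like) and 1761 (class of subcluster 13), from 3439, 3666, 3747, 3748, 1570 and 3115. With thinned cells they were 2054, 2325, 2433, 2164 and 1857 for the cDC2-like, mature migratory, subcluster 2, Pdcd1-side and subcluster 13 comparisons. The Pdcd1-side count was 2053 without lineage-conflicting cells and 2110 to 3699 with a mouse left out. The NK-like count was 851 with the authors' subclusters, 600 with finer clusters and 944 to 1963 with a mouse left out. For the Ifitm1 gate, 20 genes became 44 with another draw, 72 unmatched, 6 without the mouse block, 193 without the filter, 57 with at least 2 UMIs, 65 with at least 10 against at most 1 (chosen after seeing the data) and 5 to 79 with a mouse left out. The mouse block changed no other call of a member. Of 168 levels of the 4 members under alternatives in subclusters 2, 4, 6, 11, 12 and 13 (low levels elsewhere were not counted), 5 moved by more than 1 SD: Ifitm2 in subcluster 2 was 1845 CPM with thinned cells and 1828 CPM as a mean of single cells, Ifitm3 in subcluster 4 was 4651 CPM without lineage-conflicting cells, and in subcluster 12 Ifitm3 was 857 CPM and Ifitm6 7.81 CPM without the 3 cells with the most UMIs.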
